A study of Mus musculus with 8 samples.

Results

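Cytosolic heat shock proteins and cochaperones keep other proteins folded. From this network, 34 genes were followed here among 55492 genes. They were picked by name, with earlier results of these data known. Names equal to the listed symbols were found for each of the 34, and all 34 were abundant enough to be tested. RNA was sequenced from cultures of Yumm5.2, a mouse melanoma line labelled as strain C57B/6J, after 20 h with 4-OI (4 libraries) or with the solvent DMSO as reagent control (4 libraries). The study's design text calls the agent a permeable itaconate, and in this field 4-OI stands for 4-octyl itaconate, a cell-permeable ester of a metabolite made by activated macrophages. Every library comes from the same line, and neither a transgene nor a dose is named in the labels. They mention 4 experiments per condition but not whether each had its own culture, so p-values cover only the spread between these libraries, which may be technical.

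The name of the set holds for most but not all of its genes. Hspa9, Hspd1, Hspe1 and Trap1 encode chaperones of the mitochondrial matrix, and Hsf1 and Hsf2 encode transcription factors, so these are described apart from the cytosolic genes.

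In the cytosol, HSP70 chaperones hold exposed stretches of unfolded protein in cycles driven by ATP. J-domain proteins deliver the substrate and start ATP hydrolysis, while nucleotide exchange factors of the HSP110 and BAG families release it. HSP90 takes over partly folded clients with the help of a large group of cochaperones, and small heat shock proteins bind unfolding proteins without ATP. When unfolded protein accumulates, the factor HSF1 binds repeats of the bases GAA and TTC in promoters, called heat shock elements, and raises transcription of many of these genes.

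Library totals lay between 22962963 and 31361677 counts. The melanocytic markers Sox10, Dct, Tyr, Tyrp1 and Mlana were at or near 0, with at most 4 reads each over the 8 libraries, and Pmel had 33. Mitf averaged 3.45 TPM with 4-OI and 2.29 TPM with DMSO (TPM, transcripts per 1000000 transcripts, a level per length). The summed level of 7 immune cell markers was 2.24 to 3.02 TPM with 4-OI and 2.75 to 3.19 TPM with DMSO, with Adgre1 at 0, and that of 5 endothelial markers was at most 0.25 and 0.92 TPM, with Kdr at 0. The 5 keratinocyte markers summed to 3.04 to 4.49 TPM with 4-OI and 2.73 to 3.87 TPM with DMSO, nearly all of it Krt10. The 5 fibroblast markers summed to 34.4 to 35.4 TPM with 4-OI and 36.8 to 39.1 TPM with DMSO, with Lum at 0. Pdgfra made up most of this sum and was higher with 4-OI (32.3 against 31.3 TPM, edgeR adjusted p = 0.0137), while Col1a1 (1.89 against 4.92 TPM, adjusted p = 3.07e-13) and Dcn (0.643 against 1.66 TPM, adjusted p = 2.66e-05) were lower. The part of these markers in the results was not tested. In bulk RNA, fewer cells of a type and less RNA per cell cannot be told apart.

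Among the libraries with 4-OI, replicate 4 had the highest value of its group for 19 of the 34 genes (55.9%), against 28.7% of all genes tested. Replicate 2 of 4-OI had the lowest value for 17 (50% against 27.2% of all genes tested). Among the libraries with DMSO, replicate 1 was highest for 14 (41.2% against 26.5%) and replicate 3 lowest for 18 (52.9% against 25.4%). Leaving out any 1 of the 8 libraries kept the same 25 calls described next.

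With 4-OI, 25 of the 34 genes were higher and none was lower by edgeR's quasi-likelihood test, with 13531 genes tested, p-values adjusted over all of them by Benjamini and Hochberg's method, and a threshold of 0.05. Of all genes tested, 19.3% were higher and 19.6% lower, and of the members 73.5% were higher. Because the members were chosen with earlier results of these data known, this contrast is a description and no independent support. None of the 3 members with a negative log2 fold change reached an unadjusted p under 0.05, and DESeq2 also called 0 lower. The changes were small: the median log2 fold change was 0.20, against 0.00 over all genes tested, and the range was -0.03 to 0.86. A fold of at least 1.2 was reached by 11 members (32.4%), against 7.58% of all genes called higher at that size (7.36% were lower by as much, with 0 members among them). Members are abundant, and abundant genes are called more often. The share was therefore also taken over genes with a mean of 20 CPM or more (CPM, counts per 1000000 after scaling). This background was chosen after seeing the data. Many members lie far above its floor, so their abundance is matched only in part. Above the floor, 25 of 33 members were higher and 0 lower, against 23.2% higher and 25.6% lower of 7421 genes. By 1.2-fold, 11 members were higher, against 5.67%. In 25 members the lowest 4-OI library exceeded the highest DMSO library, a pattern that 17.4% of tested genes showed. These 25 include Cct5, which was not called, and leave out Hspd1, which was.

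**Figure D1:**
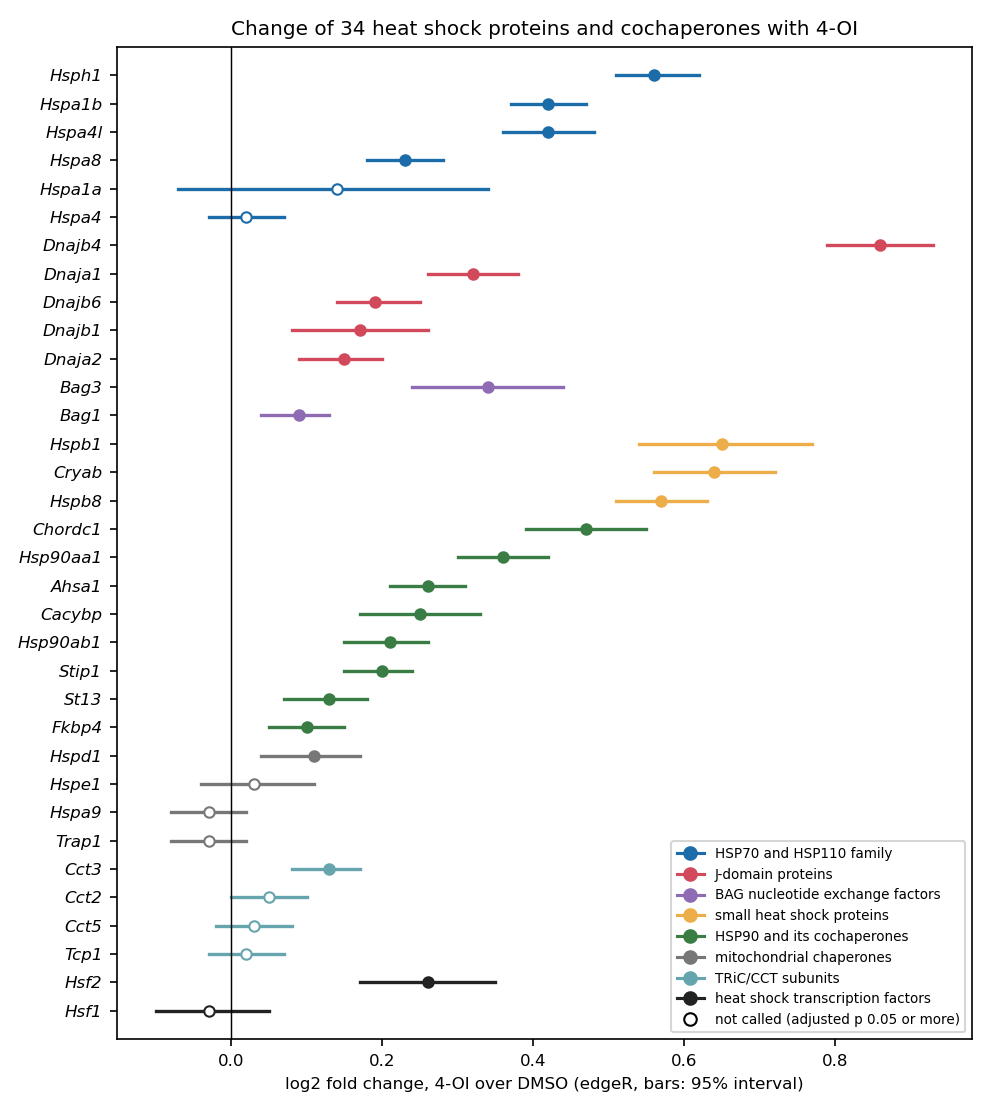
Log2 fold change of each gene, 4-OI over DMSO, from edgeR, with the 95% interval as a bar; filled points are called at an adjusted p under 0.05, and colours give the role. Small heat shock proteins (0.57 to 0.65) and Dnajb4 (0.86) lie farthest to the right, while the mitochondrial chaperones and TRiC subunits lie between -0.03 and 0.13.

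Together the 34 transcripts made up 1.65% ± 0.0296 of all TPM with 4-OI and 1.45% ± 0.0345 with DMSO (SD, n = 4 each). The lowest library with 4-OI held 1.63% and the highest with DMSO 1.49%, so the groups did not overlap. By role, 4 of 6 genes of the HSP70 and HSP110 family, 5 of 5 J-domain proteins, 2 of 2 BAG factors, 3 of 3 small heat shock proteins and 8 of 8 genes of HSP90 and its cochaperones were higher. Of the remaining roles, 1 of 4 mitochondrial chaperones, 1 of 4 TRiC subunits and 1 of 2 heat shock factors were higher. The share over all genes tested was 19.3%, to which 1 of 4 is close. With 2 to 8 genes per role, these counts are descriptive.

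**Figure D2:**
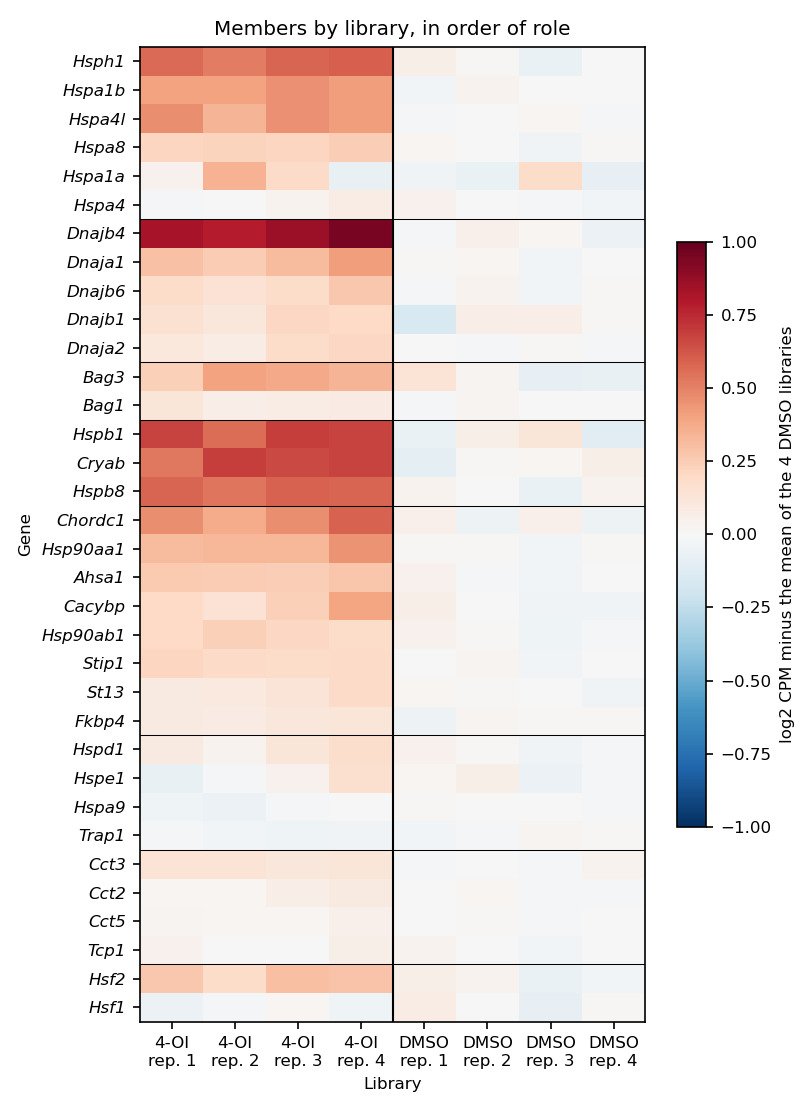
Each row is a gene and each column a library, coloured by log2 CPM minus the mean of the 4 DMSO libraries, with lines between roles. The 4-OI columns are uniformly warm for the 3 small heat shock proteins, Dnajb4 and Hsph1, and close to the DMSO columns for Hspa9, Trap1, Tcp1 and Hsf1.

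Promoters were read from RefSeq on build GRCm38.p6, as 250 bases before to 50 after each start, for the 27 members found there. The members not found were Cryab, Hsf1, Hsp90ab1, Hspa8, Hspa9, St13 and Hsp90aa1. A heat shock element was searched on both strands as 3 alternating units GAA and TTC with 2 bases between units, and in its shorter forms GAANNTTC and TTCNNGAA, which overlap with it and read the same on either strand. The 3-unit element stood in the promoters of 5 of 27 members (18.5%), against 0.662% of the 27025 genes in the table and 0.55% of those among them that were tested. Hspe1 and Hspd1, counted apart here, hold it in the same stretch of DNA. GAANNTTC was found in 13 members (48.1%), against 9.04% of all genes and 6.86% of tested ones, and TTCNNGAA in 7 (25.9%), against 9.6% and 8.21%. For comparison, the core of the antioxidant response element bound by NRF2, TGACNNNGC on either strand, was present in 6 members (22.2%), against 14% of all genes and 16.9% of tested ones.

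The 3-unit elements are shown because, of the 4 motifs searched, this is the rarest in other promoters; capitals mark the whole run of alternating units, which in Chordc1, Hspe1 and Hspd1 goes on past 3, read 5′ to 3′ on the gene's strand. They lie at chr5:149636280-149636308 (minus strand, Hsph1), chr9:18292260-18292288 (plus, Chordc1), chr5:29735844-29735872 (plus, Dnajb6) and chr1:55088054-55088081 (plus for Hspe1 and minus for Hspd1).
Hsph1: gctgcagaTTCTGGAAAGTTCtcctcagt
Chordc1: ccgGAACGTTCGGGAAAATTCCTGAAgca
Dnajb6: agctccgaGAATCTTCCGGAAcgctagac
Hspe1: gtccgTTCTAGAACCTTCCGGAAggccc
Hspd1: gggccTTCCGGAAGGTTCTAGAAcggac
Hspe1 and Hspd1 are neighbours read in opposite directions, and their element is the same stretch of DNA, between the Hspe1 start and an Hspd1 start 216 bases away. Another Hspd1 start, at 55088243, lies on the other side of the Hspe1 start. In Hsph1 the element begins 15 or 36 bases after the start, depending on which start is used. In Chordc1 the run begins 4 bases before the start and extends past it. The 5 genes with a 3-unit element differed widely in response, with log2 fold changes of 0.56 for Hsph1, 0.47 for Chordc1, 0.19 for Dnajb6, 0.11 for Hspd1 and 0.03 for Hspe1. A match of letters is a description and shows no binding.

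The HSP70 family splits into the constitutive Hspa8 and the stress-inducible pair Hspa1a and Hspa1b, which lie next to each other on chromosome 17 (34969190 to 34972156 and 34956436 to 34959238, minus strand, GENCODE release M21). Hspa8, the housekeeping HSP70, was among the most abundant transcripts of the set, with 2924, 2950, 2924 and 2993 CPM in the 4-OI libraries and 2556, 2535, 2456 and 2540 CPM in the DMSO libraries. Every 4-OI library exceeded every DMSO library, and the log2 fold change was 0.23 (95% interval 0.18 to 0.28, edgeR adjusted p = 2.40e-07). Hspa1b had 164, 164, 171 and 166 CPM with 4-OI, against 122, 127, 124 and 124 CPM with DMSO. Its groups were far apart compared with their spread, with a log2 fold change of 0.42 by edgeR (95% interval 0.37 to 0.47, adjusted p = 3.97e-11). For Hspa8, 22.4% of windows of 150 bases recur in other annotated genes, so some of its reads could be split.

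Nearly all reads of the inducible pair were assigned to Hspa1b. Hspa1a held counts of 136, 183, 175 and 151 with 4-OI and of 131, 117, 132 and 150 with DMSO. Its log2 fold change of 0.14 was not called (95% interval -0.07 to 0.34, edgeR adjusted p = 0.303), and the groups overlapped. The pair cannot be cleanly separated: 38.1% of the 150-base windows of the longest annotated Hspa1a transcript also occur in Hspa1b, and their promoter windows are identical at 296 of 300 positions. The same 60 bases stand before both starts, shown here with the short heat shock element in capitals, at chr17:34959309-34959368 for Hspa1b and chr17:34972227-34972286 for Hspa1a (minus strand).
Hspa1b: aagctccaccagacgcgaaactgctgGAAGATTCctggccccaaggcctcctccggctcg
Hspa1a: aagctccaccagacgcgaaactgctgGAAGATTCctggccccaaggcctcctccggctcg
With the reads of both genes summed into 1 row, the counts were 4387, 4823, 5322 and 5317 with 4-OI and 3346, 3175, 2950 and 4031 with DMSO. The log2 fold change of the sum, after scaling, was 0.41 (edgeR adjusted p = 5.08e-11).

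The HSP110 proteins Hsph1, Hspa4 and Hspa4l are relatives of HSP70 that release its nucleotide. Hsph1, the heat-inducible HSP105, had 537, 519, 543 and 551 CPM with 4-OI, against 378, 367, 347 and 362 CPM with DMSO. That is a rise by 47.9%, or a log2 fold change of 0.56 (95% interval 0.51 to 0.62, edgeR adjusted p = 2.04e-12). Hspa4l, with 476, 437, 473 and 461 CPM under 4-OI and 341, 347, 350 and 343 CPM under DMSO, was higher, with a log2 fold change of 0.42. Hspa4 (APG-2), the remaining HSP110 gene, had 505, 506, 521 and 534 CPM with 4-OI and 523, 507, 504 and 500 CPM with DMSO. Its groups overlapped, and the log2 fold change of 0.02 was not called (95% interval -0.03 to 0.07).

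All 5 J-domain proteins of the set were higher, by very different amounts. Of 10 further cytosolic ones, described below, 2 were higher and 4 lower. Dnajb4, a class B partner of HSP70 (chromosome 3, 152178511 to 152210302), changed most of the 34 by log2 fold change. It had 120, 117, 123 and 131 CPM with 4-OI and 67.3, 70.2, 68.8 and 65.0 CPM with DMSO, a log2 fold change of 0.86 (95% interval 0.79 to 0.93, edgeR adjusted p = 1.01e-13). Its close relative Dnajb1, the canonical stress-inducible HSP40, had 61.4, 59.8, 63.9 and 63.3 CPM with 4-OI and 49.8, 58.0, 57.9 and 55.7 CPM with DMSO. The groups of Dnajb1 came close without overlapping, and edgeR gave a log2 fold change of 0.17 (adjusted p = 0.00323). Dnaja1, a farnesylated class A protein that aids HSP70 and HSP90 clients, was the most abundant J-domain member and had 533, 517, 539 and 580 CPM with 4-OI and 437, 440, 426 and 433 CPM with DMSO, a rise by 0.32 on the log2 scale. Dnajb6, which keeps aggregation-prone proteins soluble, had 188, 183, 188 and 199 CPM with 4-OI and 163, 170, 162 and 167 CPM with DMSO (log2 fold change 0.19, edgeR adjusted p = 1.10e-05). Dnaja2, another class A protein, had 369, 360, 388 and 396 CPM with 4-OI and 344, 340, 345 and 340 CPM with DMSO (log2 fold change 0.15, edgeR adjusted p = 0.000354). None of these 3 genes had overlapping groups. Reads of Dnaja1 and Dnajb6 can stray to annotated copies, since 20.0% and 29.7% of their windows recur in other genes; the copies that share most, Gm15542 and Gm2541, held 2.24% and 0.346% of the summed reads.

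Of the BAG nucleotide exchange factors, Bag3, which together with Hspb8 sends clients to autophagy, had 52.6, 59.0, 57.9 and 56.3 CPM with 4-OI and 48.9, 45.3, 42.1 and 42.3 CPM with DMSO. All 4 libraries with 4-OI were above all 4 with DMSO, at a log2 fold change of 0.34 (95% interval 0.24 to 0.44, edgeR adjusted p = 6.40e-06). Bag1, which links HSP70 to the proteasome, had 237, 228, 230 and 231 CPM with 4-OI and 215, 222, 217 and 218 CPM with DMSO. The spread within its groups was small, and the difference of 6.17% was called (edgeR adjusted p = 0.0054).

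The 3 small heat shock proteins of the set had the largest median log2 fold change of the roles, 0.64. Further genes with Hspb names, outside the set, are given below. Hspb1 (HSP25), a chaperone that also binds actin filaments (chromosome 5, 135887919 to 135889563), had 28.5, 26.3, 28.9 and 28.6 CPM with 4-OI, against 17.1, 18.6, 19.5 and 16.5 CPM with DMSO. Cryab, or alpha B-crystallin, had 68.3, 76.3, 74.9 and 75.8 CPM with 4-OI and 44.5, 47.6, 48.0 and 49.4 CPM with DMSO. Hspb8, the partner of Bag3, had 153, 148, 154 and 153 CPM with 4-OI and 105, 102, 97.5 and 105 CPM with DMSO. In each of these 3 genes the lowest 4-OI library was more than 1.2-fold above the highest DMSO library. Their log2 fold changes were 0.65, 0.64 and 0.57 (edgeR adjusted p = 8.89e-09, 8.94e-11 and 1.66e-12), and their summed level was 382 ± 6.26 TPM with 4-OI and 247 ± 3.06 TPM with DMSO (SD, n = 4 each).

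The Hspb1 promoter carries the short element at 2 places, shown in capitals over 60 bases at chr5:135887789-135887848 (plus strand), because the match of Hspb8 lies at its start and Cryab had no entry.
Hspb1: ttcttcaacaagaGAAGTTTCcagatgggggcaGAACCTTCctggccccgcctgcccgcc
An annotated copy, Hsp25-ps1, shares 36.6% of the windows of Hspb1 but held at most 6 reads per library with 4-OI and 11 with DMSO. Cryab overlaps Hspb2 in 10.6% of its windows, and whether counting used strand is unknown here.

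Both cytosolic HSP90 genes rose, and the ratio between them is compared further on. Hsp90aa1, the stress-inducible HSP90 alpha, had 2377, 2398, 2405 and 2602 CPM with 4-OI and 1919, 1917, 1866 and 1923 CPM with DMSO, so the log2 fold change was 0.36 (edgeR adjusted p = 3.90e-09). Hsp90ab1, the constitutive HSP90 beta, had 4618, 4747, 4639 and 4565 CPM with 4-OI and 4138, 4065, 3897 and 3994 CPM with DMSO, a log2 difference of 0.21 by edgeR (adjusted p = 2.22e-06). The groups were separate for each gene. Gm12346, an annotated copy that shares 30.0% of the windows of Hsp90aa1, held 0.805% of the summed reads.

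All 6 cochaperones listed with HSP90 were higher. Chordc1, a zinc-binding HSP90 partner, had 112, 105, 112 and 122 CPM with 4-OI and 84.1, 78.4, 84.2 and 78.5 CPM with DMSO, a log2 difference of 0.47 by edgeR (adjusted p = 6.53e-09). From TPM its log2 ratio of means was 0.57, since the length implied by the deposited values differed by -0.09 on the log2 scale (4-OI minus DMSO). Ahsa1, which accelerates the ATPase of HSP90, had 239, 237, 236 and 241 CPM with 4-OI and 205, 196, 195 and 200 CPM with DMSO (log2 fold change 0.26, edgeR adjusted p = 3.33e-08). Cacybp, an adaptor of a ubiquitin ligase, had 370, 358, 382 and 424 CPM with 4-OI and 337, 324, 316 and 316 CPM with DMSO (log2 fold change 0.25, edgeR adjusted p = 3.89e-05). Replicate 4 of 4-OI was the highest library for all 3 of these genes. Stip1, the adaptor HOP that passes clients from HSP70 to HSP90, had 384, 377, 376 and 378 CPM with 4-OI and 332, 336, 325 and 329 CPM with DMSO. Libraries within a group barely differed for Stip1, so its log2 fold change of 0.20 had an interval of 0.15 to 0.24. St13, which stabilises the client-bound form of HSP70, had 696, 698, 715 and 748 CPM with 4-OI and 662, 661, 656 and 637 CPM with DMSO (log2 fold change 0.13, edgeR adjusted p = 0.000598). Fkbp4, an immunophilin of steroid receptor complexes, had 444, 440, 449 and 452 CPM with 4-OI and 402, 423, 420 and 420 CPM with DMSO (log2 fold change 0.10, edgeR adjusted p = 0.00232).

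Of the mitochondrial chaperones, Hspd1 was called higher and the others were not called. Hspa9, the mitochondrial HSP70, had 1805, 1782, 1832 and 1858 CPM with 4-OI and 1873, 1861, 1854 and 1849 CPM with DMSO. Its log2 fold change of -0.03 was not called (95% interval -0.08 to 0.02, edgeR adjusted p = 0.31); after correcting for GC content and length it was -0.07 and called lower (edgeR adjusted p = 0.0131). Trap1, the mitochondrial HSP90, had 151, 150, 148 and 149 CPM with 4-OI and 150, 151, 155 and 154 CPM with DMSO. Its log2 fold change of -0.03 was not called either (95% interval -0.08 to 0.02).

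Hspd1 and Hspe1 encode HSP60 and its cofactor HSP10, the chaperonin of the mitochondrial matrix, and share the element printed above. Hspd1 had 1431, 1380, 1466 and 1522 CPM with 4-OI and 1391, 1361, 1311 and 1325 CPM with DMSO. It was called higher, at a log2 difference of 0.11 by edgeR (adjusted p = 0.00705), though its groups overlapped. An annotated pseudogene, Hspd1-ps3, shares 18.6% of its windows and held 0.533% of the summed reads. Hspe1 had 283, 295, 307 and 332 CPM with 4-OI and 302, 309, 285 and 294 CPM with DMSO, and its log2 fold change of 0.03 was not called (95% interval -0.04 to 0.11). Whether the change of Hspd1 differs from that of Hspe1 was not tested.

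TRiC, also called CCT, is the cytosolic ring that folds actin and tubulin. Of its 4 subunits in the set, Cct3 was higher, with 765, 768, 754 and 758 CPM under 4-OI and 693, 694, 689 and 713 CPM under DMSO, a log2 difference of 0.13 by edgeR (adjusted p = 0.000142). Cct2 (log2 fold change 0.05), Cct5 (0.03) and Tcp1 (0.02) were not called. Cct5 had 868, 864, 863 and 883 CPM with 4-OI and 850, 860, 845 and 852 CPM with DMSO, so its groups were separate by a narrow margin. Those of Cct2 and Tcp1 overlapped. Cct2 was called higher by DESeq2 (adjusted p = 0.0371), with scaling by library totals (edgeR adjusted p = 0.024) and on FPKM (limma adjusted p = 0.0199).

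Hsf1, the main heat shock factor, is controlled mostly at the level of its protein. Its transcript had 59.6, 61.4, 63.1 and 60.2 CPM with 4-OI and 65.5, 62.2, 58.6 and 62.5 CPM with DMSO, and the log2 fold change of -0.03 was not called (95% interval -0.10 to 0.05). Hsf2, a related factor, had 39.6, 37.3, 40.5 and 39.9 CPM with 4-OI and 34.1, 33.6, 31.4 and 32.2 CPM with DMSO. The groups of Hsf2 were separate, with a log2 difference of 0.26 by edgeR (adjusted p = 4.06e-05).

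Levels per length spanned 3 orders of magnitude. Hsp90ab1 led with a mean of 2915 TPM with 4-OI and 2507 TPM with DMSO, followed in both groups by Hspa8 (2047 and 1731 TPM) and Hsp90aa1 (1368 and 1038 TPM). Below 100 TPM in DMSO stood Hspa4l, Hspb8, Hspa1b, Chordc1, Hsf1, Dnajb4, Hspb1, Dnajb1, Bag3, Hsf2 and Hspa1a, the last with 2.89 TPM in 4-OI and 2.62 TPM in DMSO. The first 10 places were the same in both groups. Across the 34 genes, Spearman's rho between log2 level in DMSO and log2 fold change was -0.40, and Pearson's r was -0.35, given as a description since genes share libraries and are not independent. Hspa1a and Hsf1 are low-level members that were not called.

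**Figure D3:**
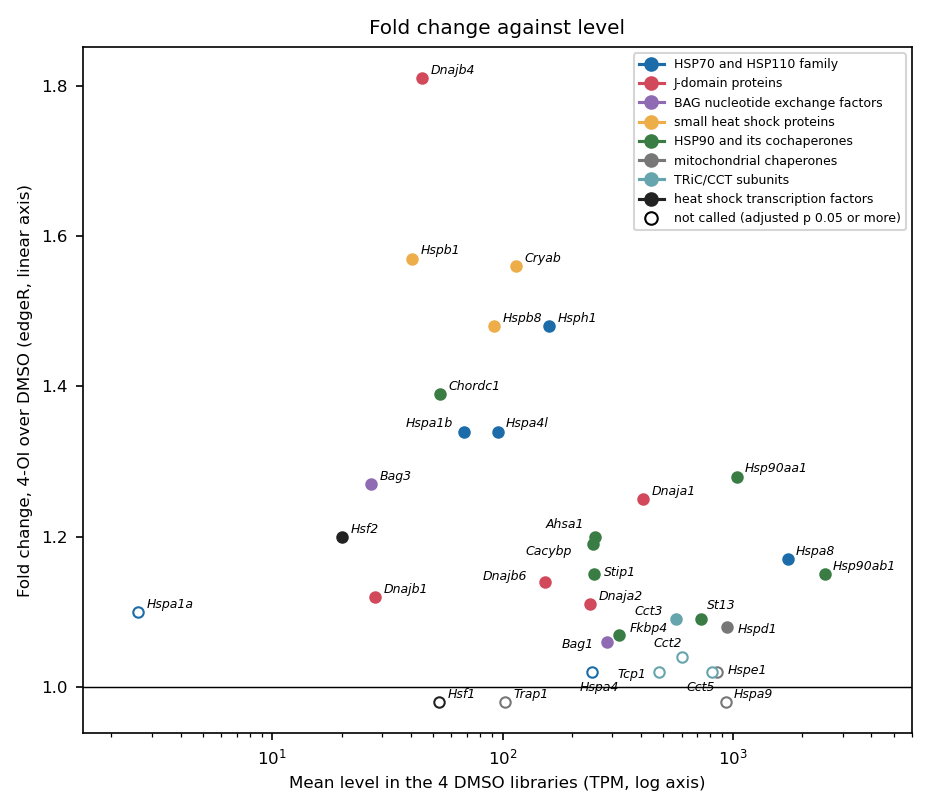
Fold change (4-OI over DMSO, edgeR, linear axis) of the 34 genes against their mean level in the DMSO libraries (TPM, log axis); open points were not called and colours give the role. Dnajb4, at 1.81-fold, and the small heat shock proteins lie highest, at 40.6 to 114 TPM in DMSO. The most abundant genes lie between 0.98-fold and 1.28-fold.

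Ratios between related genes were compared within each library, which removes any scaling between libraries. Of 6 ratios, 4 differed between the groups by a two-sided exact permutation test (exact p = 0.0286 each, the smallest that 4 against 4 libraries allow, and 0.0429 adjusted over the 6). Hspa8 per Hspa5, the HSP70 of the endoplasmic reticulum, was 2.05, 2.13, 2.06 and 1.96 with 4-OI and 1.35, 1.32, 1.25 and 1.28 with DMSO, a difference in mean log2 ratio of 0.66. Hspa8 per Hspa9, the mitochondrial HSP70, was 2.21, 2.29, 2.22 and 2.19 with 4-OI and 1.89, 1.90, 1.81 and 1.84 with DMSO, a difference of 0.26. Both ratios were higher in every 4-OI library than in any DMSO library. For both ratios this was fixed by the single genes. With 4-OI, Hspa8 was higher and Hspa5 lower, while Hspa9 stayed at 905 to 933 TPM, against 916 to 950 TPM with DMSO. The p-values of these 2 ratios are therefore no separate support.

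For the HSP70 and HSP90 pairs, the ratio of the inducible to the constitutive form was also higher with 4-OI. Hspa1a plus Hspa1b per Hspa8 was 0.0460, 0.0455, 0.0471 and 0.0455 with 4-OI and 0.0391, 0.0405, 0.0420 and 0.0413 with DMSO, a difference of 0.18 on the log2 scale. Hsp90aa1 per Hsp90ab1 was 0.442, 0.436, 0.457 and 0.544 with 4-OI and 0.410, 0.412, 0.410 and 0.423 with DMSO, again a difference of 0.18. Replicate 4 of 4-OI carried much of the Hsp90aa1 to Hsp90ab1 value: without it the difference was 0.10, and from counts in place of TPM it was 0.15. The gene length implied by the deposited values (count per FPKM) differed for Hsp90aa1 by -0.13 on the log2 scale (that library minus the other 4-OI libraries), so TPM and counts part there.

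Bag3 per Bag1 and Dnajb1 per Dnaja1 did not pass. Bag3 per Bag1 was 0.102, 0.120, 0.115 and 0.113 with 4-OI and 0.105, 0.0942, 0.0893 and 0.0897 with DMSO, with 1 DMSO library inside the 4-OI range (log2 difference 0.25, exact p = 0.0571, adjusted 0.0686). Dnajb1 per Dnaja1 was lower in 4-OI, by a log2 difference of -0.18, and the groups overlapped (exact p = 0.0857, also adjusted).

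**Figure D4:**
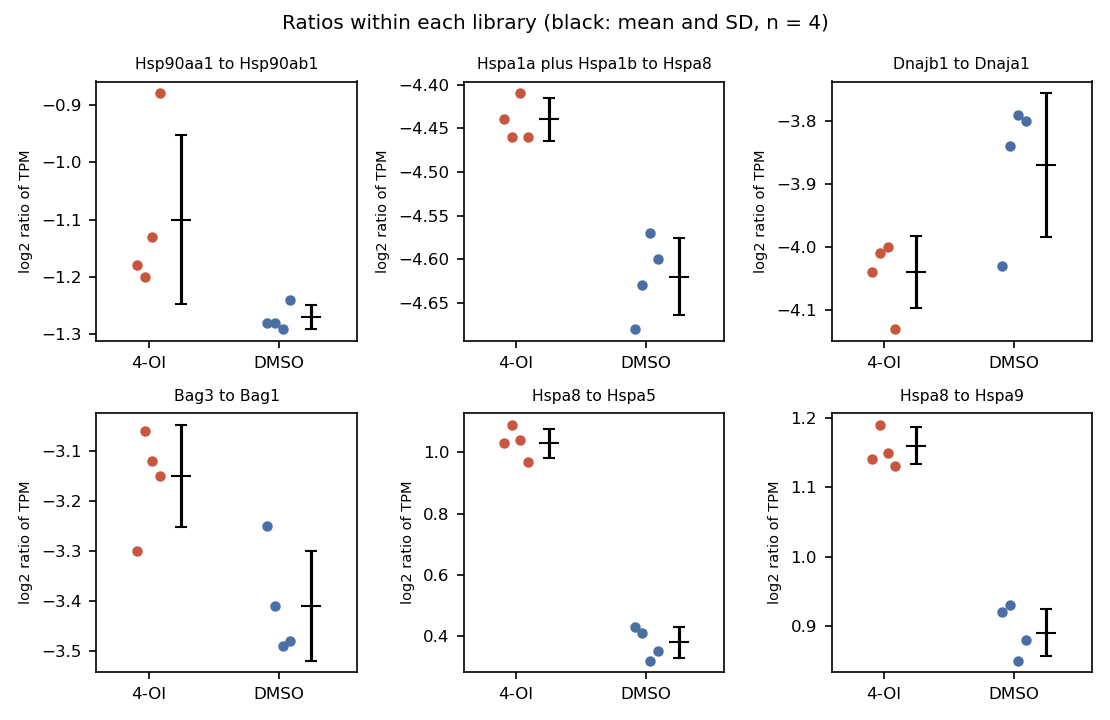
Log2 ratio of TPM in each library for 6 pairs of genes, with the mean and SD of 4 libraries in black; each panel has its own vertical range. The 4-OI points lie above all DMSO points for Hspa8 per Hspa5, Hspa8 per Hspa9, Hspa1a plus Hspa1b per Hspa8 and Hsp90aa1 per Hsp90ab1, where replicate 4 of 4-OI stands highest.

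Other genes of the pathway came from lists of related families. Their counts stand beside 19.3% higher and 19.6% lower among all genes tested, and no list was tested against these shares. Of 12 further HSP90 cochaperones, 4 were higher and 0 lower: Ptges3 (p23, log2 fold change 0.21), Ppid (0.15), Tomm34 (0.14) and Rpap3 (0.09), and their list had a median of 0.07. Of 12 further HSP70 partners, 4 were higher and 2 lower, among them Hspbp1 (0.20), the nuclear import carrier Hikeshi (0.18), Bag2 (0.15) and Hspa12a (-0.24). Of 10 further cytosolic J-domain proteins, 2 were higher and 4 lower, led by Dnajb2 (0.32), Dnaja4 (0.31), Dnajb5 (-0.22) and Dnajc21 (-0.21). Hspb11 (0.19) was the only call among 4 further genes tested that were listed for their Hspb names, whatever their function. Hspb6 (-0.09), Hspb2 (0.07) and Hspb7 (0.04, with means of 0.195 TPM in 4-OI and 0.188 TPM in DMSO) were not called. Cct7 (0.13) and Cct6a (0.09) were the calls among 4 further TRiC subunits. Of 6 prefoldin subunits, Pfdn6 (0.09) was higher and Pfdn1 (-0.18) lower. Of 12 further mitochondrial chaperones and proteases, 3 were higher and 3 lower, with a median of -0.02; Hscb (0.39), a J-domain protein of iron-sulfur cluster assembly, and Lonp1 (-0.19), the matrix protease, were at the ends.

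Neighbouring systems of protein quality control moved in both directions. Among 16 chaperones of the endoplasmic reticulum, 0 were higher and 15 were lower (19.6% of all genes tested were lower), and their median was -0.26 on the log2 scale. Hspa5 averaged 1000 ± 28.4 TPM with 4-OI and 1331 ± 8.21 TPM with DMSO (SD, n = 4 each), and its log2 fold change was -0.41 (edgeR adjusted p = 4.71e-10). Sdf2l1 (-0.43), Creld2 (-0.42) and the lectin chaperone Calr (-0.34) were also lower. Dnajb9 (0.04) was the gene not called. Of 31 proteasome subunits, 28 were higher (19.3% of all genes tested were higher) and 1, Psmd8 (-0.07), was lower, with a median of 0.17. A fold of at least 1.2 was reached by 3 of the higher subunits, against 7.58% of all genes tested. Psmd11 (0.57), Psma5 (0.54), Psmb3 (0.33) and Psma4 (0.23) led the proteasome subunits.

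**Figure D5:**
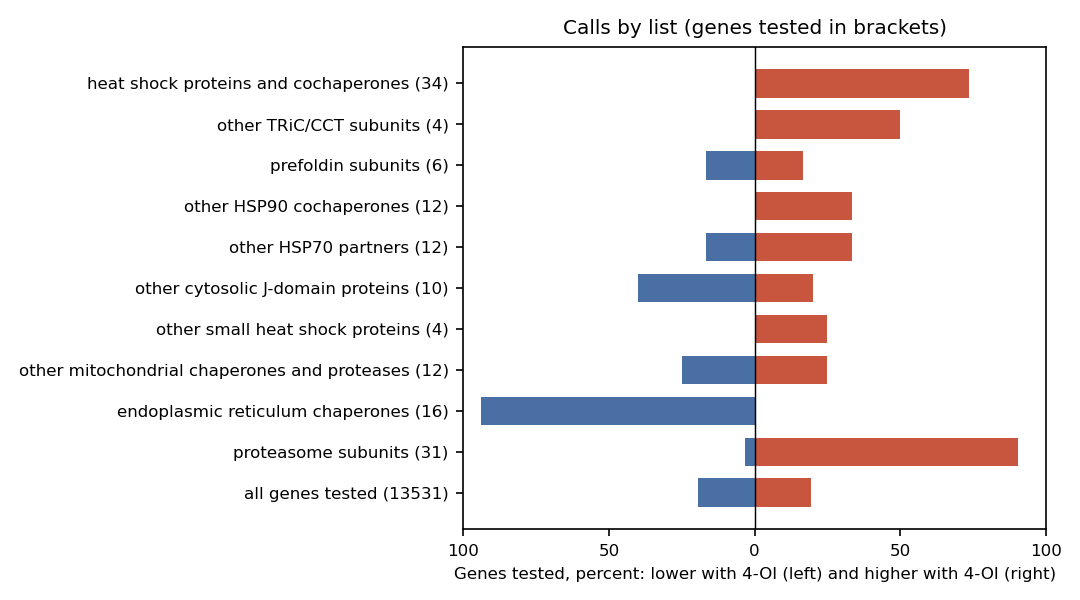
Percent of the tested genes of each list that were called lower (left, blue) or higher (right, red) with 4-OI by edgeR at an adjusted p under 0.05, with the number tested in brackets. The heat shock proteins and cochaperones (25 of 34) and proteasome subunits (28 of 31) extend to the right, endoplasmic reticulum chaperones (15 of 16) to the left, and all genes tested are nearly even.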

How the data were processed

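PolyA RNA of 8 libraries was sequenced as paired reads on an Illumina NextSeq, per the labels' protocols. The submitters' processing notes name build GRCm38 and RSEM 1.3.3, STAR 2.7.8a, cutadapt 2.3, MultiQC 1.7 and FastQC 0.11.8, without their roles. Annotation and strand setting: not given in the sources used here. The authors deposited estimated counts per gene (expected counts, whole numbers here), TPM (per length, summing to 1000000) and FPKM (scaled by length and depth). Groups came from titles and columns from descriptions.

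Expected counts were tested with edgeR 4.0.16 (R 4.3.3): filterByExpr (minimum count 10), TMM, quasi-likelihood F test, two-sided, no covariate, Benjamini-Hochberg over 13531 genes. CPM values use TMM-scaled totals. Ratios of TPM used a two-sided exact permutation test over 70 arrangements. DESeq2 1.42.0 and limma 3.58.1 on log2(value + 1) or log2(TPM + 0.1) were alternatives, with other scalings, filters, a GC and length correction and each library left out. The fit was run on simulated counts in which all genes shared a common spread, which checks the code and not the calls. Same-numbered libraries did not deviate together, so replicate numbers were not taken as pairs. The members and lists were chosen with earlier results of these data known. Named genes are the 34 members, Hspa5 and up to 4 called genes per further list by size of change. Dnajb9, Psmd8, Hspb2, Hspb6 and Hspb7 were named after their values were seen. Windows of 150 bases of GENCODE M21 transcripts were compared to find shared reads. Protein sequences were not used here.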

Additional observations from a re-analysis of the deposited data

Results flagged for a closer look

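In 80 sets of 4 libraries (34 genes and 6 ratios, in each group), 5 had a library whose gap to the next was large against the range by Dixon's 95% criterion, which chance meets in about 1 of 20 sets. Hsp90aa1 stood apart at 2602 CPM in 4-OI replicate 4, with the other 4-OI libraries at 2377 to 2405 CPM, and at 1866 CPM in DMSO replicate 3, with the other DMSO libraries at 1917 to 1923 CPM. Hspb1 was low at 26.3 CPM in 4-OI replicate 2 (28.5 to 28.9 CPM in the others). Fkbp4 was low at 402 CPM in DMSO replicate 1 (420 to 423 CPM in the others). The log2 ratio of Hsp90aa1 to Hsp90ab1 was -1.24 in DMSO replicate 4 and -1.29 to -1.28 in the other DMSO libraries. No cause was tested.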

How the results depend on the processing

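The same 25 members were called higher under every alternative fit (other scalings, filters, DESeq2, limma on TPM or FPKM, the GC and length correction, and each library left out), with 25 or 26 calls in all. Requiring a fold of at least 1.2 left 11. The count of lower members was 0 except with the GC and length correction, where it was 1 (Hspa9). Over all genes, 1026 higher and 996 lower remained at 1.2-fold, and lower calls were 1535 on FPKM, 1620 on TPM with a pseudocount of 1 and 1615 with 0.1, against 2646. Leaving out 1 library gave 2249 to 2522 higher and 2369 to 2666 lower.

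Small values changed sign in 2 cases: Hspe1 was -0.01 without 4-OI replicate 4 (up to 0.07 without another library) and Tcp1 was -0.01 with the GC and length correction; neither was called. The cause was not tested. Ratios lost their call with 4 against 3 libraries, where the smallest exact p is 0.0571, while differences were 0.10 to 0.21 for Hsp90aa1 to Hsp90ab1, 0.16 to 0.19 for Hspa1a plus Hspa1b to Hspa8, 0.64 to 0.68 for Hspa8 to Hspa5 and 0.25 to 0.27 for Hspa8 to Hspa9. With the replicate number as pairs (replicate block), 4 pairs allow an exact sign-flip p of 0.125 at least, and these differences were 0.18, 0.18, 0.66 and 0.26. The replicate block in edgeR left 25 members higher and 0 lower, and same-numbered libraries correlated at -0.0155 to 0.0702, so they were not treated as pairs. No member's call changed with the block. Depth limits Hspa1a most, at 117 to 183 reads per library.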
